A study of Mus musculus with 2 samples.

Results

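Late spermatocytes nearing the meiotic divisions were described in single-cell RNA sequencing of mouse testis. The class held 1871 of the 9594 cells in both libraries, 630 of 2771 in the young library and 1241 of 6823 in the aged one. Cells entered if they had a total of at least 3215 counts, at most 25% mitochondrially encoded counts, under 0.5% of counts from 4 Leydig cell genes (Cyp17a1, Ptgds, Hsd3b6 and Star) and under 0.3% from the protamine and transition protein genes Prm1, Prm2, Tnp1 and Tnp2. A spermatocyte also needed more counts from Sycp1, Sycp2, Sycp3, Syce1, Pou5f2 and Ccna1 than from the spermatid genes Acrv1, Spaca1, Spaca3, Spaca7, Tex36 and Lyzl6, with at least 3 counts in all. Members were the spermatocytes in which the sum of Ccna1, Cdk1, Aurka and Ccnb1 was at least the sum of Sycp2, Tdrd1, Tdrd5, Adad2, Pcgf5 and Tesmin. The other 1315 spermatocytes are called early here. The members were thus chosen by measured transcript counts of these genes, so every difference in transcripts between late and early cells is a description with no test.

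One library came from mice aged 2 months (young) and one from mice aged 24 months (aged), and the strain, genotype and number of mice are not given in the sources used here. Both groups were anaesthetised with Avertin, the capsule of the testis was taken off, and the minced tissue was dissociated with accutase, passed through a strainer and loaded on the BD Rhapsody microwell system. The labels call the cells stroma cells, whereas the rule chose the members by their spermatocyte transcripts. Sycp3, which the rule used, was at 150 CPM (counts per 1000000 summed counts) in young and 133 CPM in aged members. Its level follows from that choice and is no separate evidence of identity. With 1 library per age, age and library cannot be told apart, no p-value can be given, and fewer cells of a type in the tissue and fewer cells recovered cannot be told apart either. Where a pair of values is given without a name, the young library comes first.

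In the pachytene and diplotene stages of meiosis, homologous chromosomes are paired, recombine and then desynapse while the X and Y chromosomes are silenced in the sex body. The cell then enters the first division when Cdk1, bound to cyclins, is activated, with the Aurora and Polo kinases acting on the chromosome axes, the centrosomes and the spindle. Spermatocytes transcribe much of this machinery, and many sperm genes, well before the proteins are used.

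The promoter letters just before the start sites of the 4 marker genes are shown because CCAAT boxes (bound by the factor NF-Y) and the cell cycle homology element TTTGAA (bound by the MuvB complex with B-Myb or FoxM1) are the letters through which promoters of division genes are usually described. The sequences are the 120 bases before the RefSeq start on GRCm38.p6, all on the minus strand, written 5′ to 3′ along the gene. Capitals mark CCAAT or its reverse complement ATTGG, and TTTGAA or its reverse complement TTCAAA. Ccna1, the cyclin A1 of male germ cells, lies at chr3:55055056-55055175, and its letters hold 1 ATTGG. Cdk1, the kinase of division, lies at chr10:69352913-69353032, with 2 ATTGG and 2 TTTGAA. Aurka, the Aurora kinase of the spindle poles, lies at chr2:172370571-172370690, with 2 CCAAT. Ccnb1, the cyclin B1 that activates Cdk1, lies at chr13:100786487-100786606, with 2 CCAAT.
Ccna1: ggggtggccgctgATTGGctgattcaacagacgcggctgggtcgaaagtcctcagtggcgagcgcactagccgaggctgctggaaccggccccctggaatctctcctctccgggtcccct
Cdk1: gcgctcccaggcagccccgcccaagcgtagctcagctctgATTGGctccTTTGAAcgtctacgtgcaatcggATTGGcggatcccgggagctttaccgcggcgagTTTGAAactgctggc
Aurka: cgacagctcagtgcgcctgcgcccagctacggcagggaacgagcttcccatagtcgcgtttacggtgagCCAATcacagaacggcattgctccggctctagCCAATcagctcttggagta
Ccnb1: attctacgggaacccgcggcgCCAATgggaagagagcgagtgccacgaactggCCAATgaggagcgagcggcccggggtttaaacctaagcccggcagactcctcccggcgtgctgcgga

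These letters are common. In windows of 300 bases, from 250 before to 50 after the start, CCAAT on either strand was found in 41.1% of 27025 RefSeq promoters and TTTGAA in 20.2%. Among genes at least 1.5-fold higher in late than in early cells of both libraries, 1405 had a promoter in the table, of which 44.3% held CCAAT and 18.4% held TTTGAA, against 43.4% and 15.2% of the 8286 promoters of genes with enough counts. Of 32 genes of the spindle and kinetochore list with a promoter, 19 held CCAAT and 24 held TTTGAA. Of 17 genes of the list of division cyclins, kinases and phosphatases, 11 held CCAAT and 4 (23.5%) held TTTGAA. A match is a description of letters and does not show that a factor is bound there.

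The members were deeply covered. Their summed counts were 20350461 in the young library and 23003064 in the aged one, and the median cell had 30342 counts from 5938 genes in the young library and 17737 counts from 4793 genes in the aged one. The lowest and highest totals were 16582 and 68558 in young and 3952 and 46895 in aged members. Mitochondrially encoded counts made up a median of 0.470% and 0.445%. Scrublet called 3 of the young members (0.476%, 95% exact Clopper-Pearson interval 0.0983 to 1.39) and 23 of the aged (1.85%, 1.18 to 2.77) doublets, and these cells were kept. The libraries shared 35 cell barcodes, 0 of them among members. All intervals in this text cover counting error only.

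The class is a range cut from a score and not a separate type. The late share of a cell, the late sum over the late and early sums together, had a median of 0.742 in young members (middle 50% of cells from 0.692 to 0.787) and 0.714 in aged members (0.64 to 0.776). Few young members lay near the limit of 0.5: 14 (2.22%) had a late share below 0.55, against 90 aged members (7.25%), while 15 young and 59 aged early cells lay between 0.45 and 0.5. The late sum was within 3 counts above or at the early sum in 7 young and 108 aged members, and within 3 counts below it in 9 young and 69 aged early cells. The median member had 44 late and 15 early counts in the young, and 25 late and 10 early counts in the aged library.

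**Figure D1:**
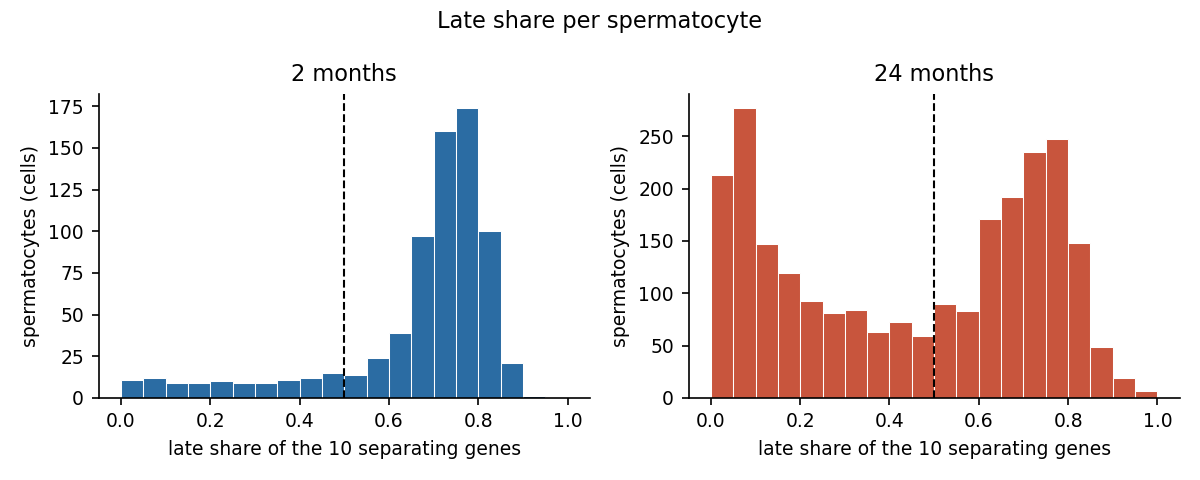
Number of spermatocytes (y axis, cells) by late share in bins of 0.05 (x axis, from 0 to 1) in the library of 2 months (left) and of 24 months (right), with the limit of the class at 0.5 as a dashed line. Young cells gather around the members' median of 0.742, while aged cells form a second group at low late share.

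The makeup of the spermatocytes differed between the libraries. Members were 85.5% of 737 young spermatocytes (82.7 to 87.9) and 50.7% of 2449 aged spermatocytes (48.7 to 52.7). These intervals cover counting error only and hold no variation between mice or library preparations. Their separation is therefore no test of a difference between ages. Early cells numbered 107 in the young library and 1208 in the aged one. The order of the libraries turned with the denominator: members were 22.7% (21.2 to 24.4) of all cells passing the limits on total and mitochondrial counts in the young library and 29.7% (28.3 to 31.1) in the aged one. Of spermatocytes and round spermatids together they were 50.8% (47.9 to 53.6) and 38.3% (36.7 to 40.0). The median total of early cells was 30335 in the young library and 16041 in the aged one, close to that of the members. The smallest young cell in the table held 3215 counts and the smallest aged cell held 186 counts, and the part of cell recovery and cell calling in these shares was not tested.

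The 4 marker genes, which the rule used, were at like levels in both libraries. Summed over young members, Ccna1 was at 434 CPM (exact Poisson 95% interval 425 to 443), and over aged members at 410 CPM (402 to 418). Cdk1 was at 252 CPM (245 to 259) and 278 CPM (271 to 285). Aurka was at 596 CPM (586 to 607) and 581 CPM (572 to 591). The fourth marker, Ccnb1, was the one that differed most between the libraries, at 168 CPM (163 to 174) in young and 139 CPM (134 to 144) in aged members, 1.21-fold higher in the young.

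Early cells, the reference here and for the gene lists below, had a median late share of 0.267 when young and 0.133 when aged. Of these, 41 of 107 young and 756 of 1208 aged cells lay below 0.2. The part of this in the gaps between young and aged ratios of late over early cells was not tested. Against early cells of the same library, Ccna1 was 2.46-fold higher (2.26 to 2.68) in young and 3.5-fold higher (3.35 to 3.67) in aged members. Cdk1 was 2.58- and 2.73-fold higher and Aurka 2.55- and 2.87-fold higher. Ccnb1 stood 10.1-fold (7.75 to 13.4) and 12-fold (10.5 to 13.7) above its early levels of 16.7 and 11.6 CPM. Of the 6 early genes of the rule, Sycp2, an axis protein of the synaptonemal complex, was lower in late cells by the least, 2.38- and 2.89-fold. Adad2, an RNA-binding protein of germ cell granules, was lower by the most, 6.88- and 7.43-fold. Round spermatids had less of all 4 late genes, with Cdk1 at 21.6 CPM in the young library and 20.4 CPM in the aged one.

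Nearly every member held the late transcripts, which the rule used to choose the members. Their detection in members, and its difference from early cells, at full depth or thinned, follows from that choice. Ccna1 had at least 1 count in 100% of young and 99.4% of aged members, Aurka in 100% and 99.9%, Cdk1 in 96.8% and 93.0%, and Ccnb1 in 96.5% and 86.8%. In Leydig cells, which serve here as the background of free RNA and had median totals of 6938 and 5304, Ccnb1 was seen in 1.56% and 0.92% of cells. These cells were chosen with fewer than 3 counts from the spermatocyte and spermatid genes of the rule, so germ cell RNA in them is limited by choice. Every cell was then thinned to 3215 counts, which left out no member, with the classes kept as set at full depth. Ccnb1 was seen in 40.8% of young and 34.3% of aged members, in 5.61% and 3.23% of early cells and in 0.832% and 0.690% of Leydig cells. At this equal depth, the share for Ccnb1 was still lower in the aged members, as was its level, while Ccna1 was seen in 74.4% and 74.6%.

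Within the spermatocytes the late genes did not follow one course along the late share, which was built from them together. In the lowest bin, below 0.2, with 41 young and 756 aged cells, Aurka stood at 136 and 129 CPM and Ccna1 at 63.7 and 48.3 CPM. Ccnb1 was at only 3.64 and 6.57 CPM there, and at 23.2 and 18.1 CPM between 0.2 and 0.5. In the class it was at 80.5 and 88.7 CPM between 0.5 and 0.65, and at 176 and 151 CPM between 0.65 and 0.8. From 0.8 upwards it was at 203 and 189 CPM. Over the bins of the class, its ratios of aged over young were 1.10 (0.94 to 1.30), 0.86 (0.81 to 0.91) and 0.93 (0.84 to 1.03). Ccna1 was already at 233 and 205 CPM between 0.2 and 0.5, so more of its range lay before the limit of the class than that of Ccnb1. The Polo kinase Plk1, which the rule did not use, was at 85.4 and 80.1 CPM in that bin, 263 and 260 CPM in the next, 385 and 375 CPM between 0.65 and 0.8, and 382 and 393 CPM in the highest. Cdc25a, a phosphatase that activates cyclin-dependent kinases, was at 37.2 and 39.5 CPM between 0.2 and 0.5 and at 288 and 305 CPM from 0.8 upwards.

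Genes of earlier prophase were lower bin by bin. Piwil1, the Argonaute protein that carries pachytene piRNAs, was at 1664 and 1755 CPM below 0.2 and at 220 and 244 CPM from 0.8 upwards. Sycp1, the transverse filament of the synaptonemal complex, was at 332 and 419 CPM in the lowest bin, already at 111 and 129 CPM between 0.2 and 0.5, and at 52.4 and 63.3 CPM in the highest. Pou5f2, a POU domain factor of the male germ line, had a peak between: 228 and 237 CPM in the lowest bin, 478 and 529 CPM between 0.2 and 0.5, and 102 and 115 CPM in the highest. Hspa2, a chaperone of the synaptonemal complex and of Cdk1, hardly moved, at 1650 and 1874 CPM in the lowest and 1505 and 1746 CPM in the highest bin.

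**Figure D2:**
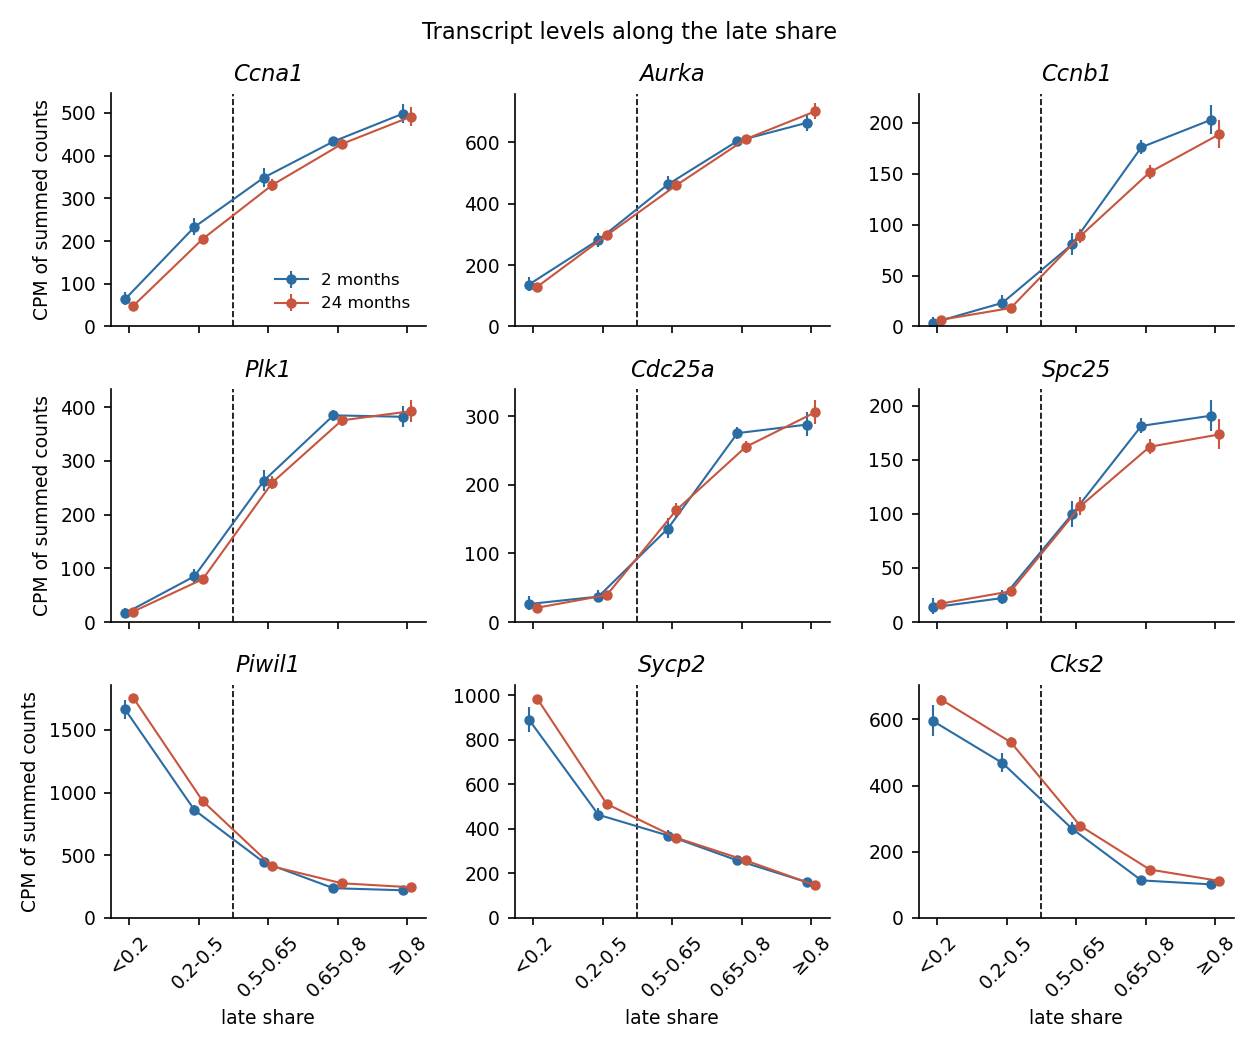
Summed level in CPM (y axis, linear, from 0) of 9 genes in 5 bins of the late share (x axis) in each library, with exact Poisson 95% intervals and the limit of the class as a dashed line. Ccnb1 goes from 3.64 to 203 CPM in the young library and Aurka from 136 to 663 CPM, and Piwil1, Sycp2 and Cks2 are lower in the higher bins.

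Across all genes, 1947 of 11396 genes with at least 50 counts in each library were at least 1.5-fold higher in late than in early cells of both libraries, which is 17.1%, and 2526 (22.2%) were at least 1.5-fold lower. The median gene had a log2 ratio of -0.08 in the young library and -0.07 in the aged one. Taken one library at a time, 2289 genes were higher in the young library and 2570 in the aged one, 2966 and 3173 were lower, and 21 went opposite ways. Under median-of-ratios scaling 2293 were higher and 2117 lower, so the excess of lower genes depended on the scaling. As the early cells are those the rule turned away, nothing is read from these shares.

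Of the 25 genes on the list of division cyclins, kinases and phosphatases, 21 had enough counts. Of these, 8 were higher and 8 lower in late cells of both libraries, beside 17.1% and 22.2% of all genes. The median log2 ratio was 0.20 in the young library and 0.54 in the aged one. Plk1 was at 368 CPM in young members and 345 CPM in aged ones, 5.91-fold (5.14 to 6.82) and 7.46-fold (6.96 to 7.99) above early cells. Cdc25a was at 259 and 237 CPM, 7.71- and 8.12-fold higher, and its relative Cdc25c at 15.9 and 18.1 CPM, 7.51- and 10.5-fold higher. Wee1, the kinase that holds Cdk1 inactive, was also among the higher genes, at 41.2 and 35.3 CPM and 3.32- and 2.92-fold above early cells. An inhibitor and activators of Cdk1 were therefore both on the higher side. Ccnb2, the other B-type cyclin, was 2.1- and 1.79-fold higher at 406 and 346 CPM, and Aurkb, the Aurora kinase of the chromosomal passenger complex, was 1.62- and 1.79-fold higher.

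The lower genes of that list included subunits and regulators of several cyclin-dependent kinases. Cks2, a small subunit of cyclin-dependent kinases, was at 131 CPM in young members and 179 CPM in aged ones against 510 and 603 CPM in early cells, 3.89- and 3.38-fold lower. Cdk2, which sits on meiotic chromosomes, was at 96.1 and 119 CPM against 250 and 283 CPM. Ensa and Arpp19, the inhibitors of the phosphatase PP2A that Mastl acts on, and Pkmyt1, an inhibitory kinase of Cdk1, were lower as well, as were Cks1b, Ccne2 and Ccnh. Nek2, a centrosomal kinase, was 1.44- and 1.45-fold higher and so did not reach the limit. Haspin, the kinase of histone H3 at centromeres, was at 1259 and 1278 CPM against 841 and 762 CPM, just below the limit in the young library and above it in the aged one.

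Among 28 counted genes of the anaphase promoting complex and the spindle checkpoint, 6 were higher and 7 lower in both libraries. These counts lie near the 17.1% higher and 22.2% lower of all genes. Espl1, the separase that cleaves cohesin, was at 213 and 222 CPM and 2.21- and 2.4-fold higher. The E2 enzyme of the complex, Ube2c, was at 86.0 and 80.8 CPM against 25.4 and 19.2 CPM in early cells, and Fzr1, its Cdh1 activator, at 303 and 308 CPM against 170 and 150 CPM. Cdc20, the activator used at metaphase, was 1.26- and 1.28-fold higher, below the limit. The checkpoint protein Mad2l1 was among the lower genes, at 2.6 and 3.35 CPM against 17 and 20 CPM.

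The spindle, kinetochore and cytokinesis list had more higher than lower genes. Of its 34 counted genes, 14 were higher and 4 lower, beside 17.1% and 22.2% of all genes. The median log2 ratio was 0.49 in both libraries. Spc25, a subunit of the Ndc80 kinetochore complex, was at 172 CPM in young members and 148 CPM in aged ones, 8.89- and 6.68-fold above early cells, and Ndc80 itself was 1.87- and 2.13-fold higher. Kif23, a motor of the central spindle, was 8.93- and 6.42-fold higher, and Cenpe, a motor of the kinetochore, 6.03- and 5.63-fold. Incenp, the scaffold of the chromosomal passenger complex, was 3.25- and 3.13-fold higher. The exceptions were Spc24, the partner of Spc25, and Ckap5, Ckap2 and Numa1, which were lower.

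Genes of synapsis, recombination and the piRNA pathway had more lower than higher members, beside 22.2% lower and 17.1% higher over all genes. Of 11 counted genes of the synaptonemal complex, 0 were higher and 9 lower, with medians of -1.17 and -1.53. The rule used 3 of these 9, Sycp1, Sycp2 and Sycp3, to place the cells. Sycp1 was at 69.7 and 72.4 CPM against 185 and 292 CPM, and Sycp3, the axis protein, at 150 and 133 CPM against 227 and 228 CPM. Syce1, a central element protein, kept a like level, 1.08- and 1.14-fold that of early cells, and it was one of the genes that chose the spermatocytes. In the recombination list 2 of 26 genes were higher, 11 lower and 13 neither. In the piRNA list 1 of 22, Kif17, was higher and 11 were lower, 2 of them (Tdrd1 and Tdrd5) used by the rule, with Piwil1 at 260 and 310 CPM against 1128 and 1394 CPM, 4.33- and 4.5-fold lower. Kif17 was also higher in the members with most spermatid transcripts than in the other members. Without those members, 0 of 22 piRNA genes were higher.

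The cohesin list of 11 counted genes split evenly, with Rec8 and Smc3 higher and Meikin and Pds5b lower. Over all genes, 17.1% were higher and 22.2% lower. Rec8 and Smc3 were also both higher in the members with most spermatid transcripts, and in the other members Rec8 was at 1.8 and 1.6 CPM and Smc3 at 35.6 and 33.0 CPM. Smc3, a core cohesin subunit, was at 42.1 and 38.5 CPM against 3.33 and 9.51 CPM. Stag3, the meiotic cohesin subunit, was at 297 and 298 CPM against 293 and 306 CPM. Sgo2a, the shugoshin that protects centromeric cohesin, was 1.45- and 1.44-fold higher, at 152 and 164 CPM, and round spermatids held 16.9 and 16.3 CPM.

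Of 23 counted transcription factors, Rfx3, Lin54 and Foxm1 were higher and Nfyb was lower, beside 17.1% and 22.2% of all genes. Without the members with most spermatid transcripts, 2 of 21 (Lin54 and Foxm1) were higher and 3 were lower. Over all genes it was then 12.7% and 23.2%. Foxm1, a factor of division genes, was at 232 CPM in young members and 213 CPM in aged ones, 3.79- and 5.52-fold above early cells. Lin54, the DNA-binding subunit of MuvB, was at 32.3 and 31.6 CPM and 2.67- and 2.54-fold higher. Mybl1, the A-Myb factor of pachytene transcription, was at 124 and 134 CPM, 1.16- and 1.32-fold. Crem, a factor of spermatid genes, was at 280 and 265 CPM in members and 551 and 542 CPM in round spermatids.

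Of the sperm gene lists, more members were higher than lower, largely through the 12.7% and 13.4% of members with most spermatid transcripts. For this and the lists below, 17.1% of all genes were higher and 22.2% lower. Of 27 acrosome genes 9 were higher and 1, Tex101, was lower, with medians of 0.46 and 0.59, and all 9 were also higher in the members with most spermatid transcripts than in the others. Without those members, 2 of 24 acrosome genes (Actl7a and Actl7b) were higher, against 12.7% of all genes. Of 41 flagellum genes 9 were higher and 2 lower, near the 17.1% of all genes, and 4 were higher without those members. Of 20 testis energy isozymes 7 were higher and 1, the testis cytochrome c gene Cyct, was lower, and 3 were higher without those members (Pgk2, Hk1 and Slc2a5). The counts of higher genes on the division and the spindle and kinetochore lists, 8 and 14, were the same without them. Pgk2, the autosomal copy of the X-linked glycolytic gene Pgk1, was at 492 and 486 CPM against 266 and 203 CPM. Utp14b, another autosomal copy of an X-linked gene that shares its locus with Acsl3, was 2.22-fold higher in both libraries. Of 23 genes of translation control, Papolb, the testis poly(A) polymerase, was the 1 higher gene, at 662 and 614 CPM and 1.7- and 2.01-fold, and 3 were lower. The remaining lists were even or lower: 1 higher and 4 lower of 19 meiotic exit and chaperone genes, 1 and 3 of 8 histone variants, 1 and 5 of 13 apoptosis and DNA damage genes, and 1 and 1 of 15 dissociation and stress genes. Without the members with most spermatid transcripts, the higher genes of these 4 lists were 0 of 19, 0 of 8, 1 of 12 and 0 of 14.

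By the size rule over all genes with at least 50 CPM, the genes that stood highest above early cells included Rrm2, a subunit of ribonucleotide reductase, at 64.9 and 59.3 CPM and 13.4- and 7.28-fold. Elfn1, a synaptic membrane protein in neurons, was at 104 and 94.2 CPM and 9.04- and 12.3-fold higher, and its level in the bins was 2.73 and 2.07 CPM below 0.2 and 102 and 109 CPM from 0.8 upwards. Rhno1, a partner of the 9-1-1 checkpoint clamp, was 6.92- and 6.79-fold higher, Syne2, a protein of the nuclear envelope, 6.66- and 9.04-fold, and Ngfr, the p75 neurotrophin receptor, 5.98- and 7.88-fold. Kif18b, a microtubule motor, was 6.06- and 6.41-fold higher. Among the lowest genes, Hmgb2, a chromatin protein, was at 26.3 and 37.3 CPM, 7.11- and 6.06-fold lower, and Tex101, a germ cell surface protein, at 45.9 and 50.4 CPM against 223 and 299 CPM.

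**Figure D3:**
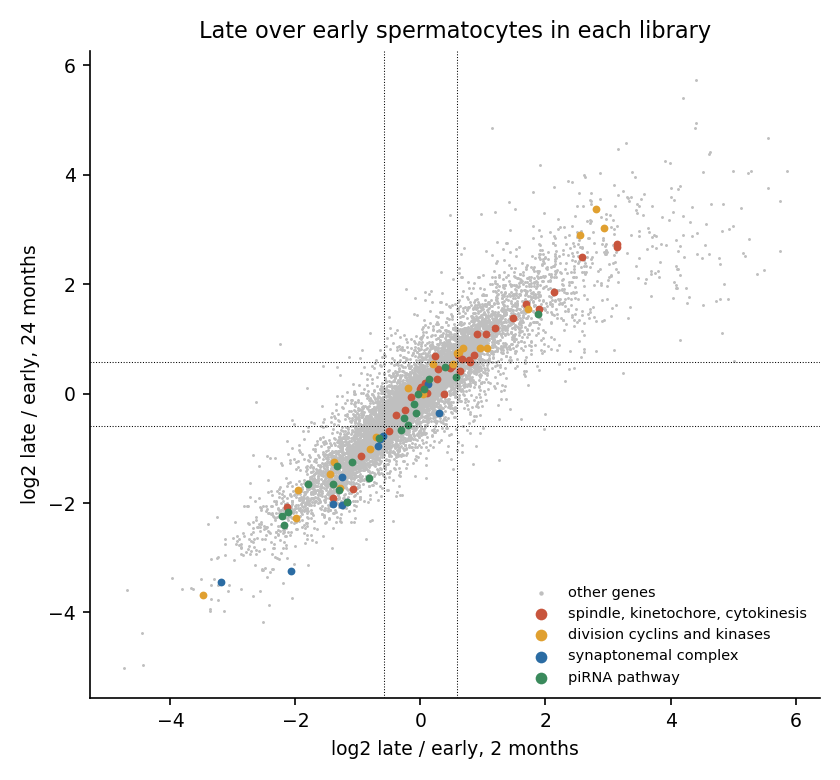
Log2 ratio of late over early spermatocytes in the young (x axis) and aged library (y axis), 1 point per gene with at least 50 counts in each, with 4 gene lists in colour and dotted lines at 1.5-fold. Most points lie along the diagonal, and 21 of 11396 genes passed the limit in opposite directions.

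Against round spermatids, 4402 of 13635 genes (32.3%) were at least 1.5-fold higher in members of both libraries and 4429 (32.5%) lower, with medians of 0.17 and 0.23. Of 35 spindle and kinetochore genes, 31 were higher and 1, Ckap5, was lower, with medians of 1.28 and 1.33. Of 16 sex body genes, 13 were higher and 3, Brca1, Scml2 and Usp7, lower. Phf2, a histone demethylase, was at 298 CPM in young members and 362 CPM in aged ones and at 8.72 and 12.1 CPM in round spermatids. Slc2a3, the glucose transporter GLUT3, was at 2026 CPM in members of both libraries and at 164 and 170 CPM in round spermatids, while early cells had 2479 and 2446 CPM. At the other end, Dpysl3 was at 5.6 and 5.04 CPM in members and 314 and 357 CPM in round spermatids. This contrast was also used by the rule, through the spermatid sum.

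Counts from the X chromosome were scarce. They made up 0.110% (0.109 to 0.112) of member counts in the young library and 0.0997% in the aged one, against 0.0677% and 0.0676% in early cells, 0.860% and 0.909% in round spermatids, and 2.65% and 2.57% in Leydig cells. The Y chromosome gave 0.00890% and 0.00884% of member counts. Of 16 genes of the sex body list, which act in this silencing, 2 were higher than in early cells (Scml2 and Cbx3). Another 4 were lower (H2afx, Topbp1, Hormad1 and Cbx1), beside 17.1% higher and 22.2% lower of all genes. Without the members with most spermatid transcripts, 1 of 15 (Cbx3) was higher and 3 were lower, beside 12.7% and 23.2%. Topbp1, a checkpoint protein of the sex body, was at 9.29 and 9.17 CPM against 30.3 and 46.1 CPM.

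A minority of members gave a large part of the X-linked counts. In 80 young members (12.7%, 10.2 to 15.6) and 166 aged members (13.4%, 11.5 to 15.4) the spermatid sum was at least 10% of the spermatocyte and spermatid sums together, a limit chosen after values had been seen. These cells held 41.3% of the X-linked counts of young and 43.1% of those of aged members. In these cells the X chromosome gave 0.402% (0.394 to 0.410) and 0.392% (0.384 to 0.400) of counts, and in the other members 0.0730% and 0.0637%, near the early cells. Without the cells called doublets, 78 young and 153 aged such members were left, and their X-linked share was 0.404% and 0.400%. Doublet calls were more frequent among them, 2 (2.5%) and 13 (7.83%), than among the other members, 1 (0.182%) and 10 (0.930%).

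**Figure D4:**
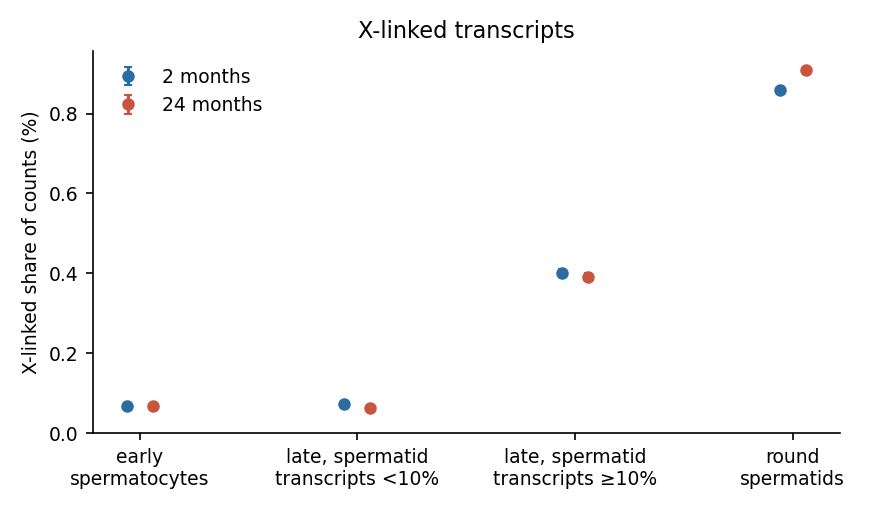
Share of counts from X-linked genes in percent (y axis, linear, from 0) in early spermatocytes, members with under 10% and with at least 10% spermatid transcripts, and round spermatids (x axis) of each library, with exact Clopper-Pearson 95% intervals mostly smaller than the points. The members with at least 10% lie near 0.4%, between the other members and round spermatids, in both libraries.

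In the other members, single X-linked genes lay on both sides of early cells. Of 61 X-linked genes with enough counts, 27 were at least 1.5-fold higher and 4 lower in both libraries, against 12.7% higher and 23.2% lower of all 10789 genes. Young early cells held 3301659 counts and the other young members 18045344. A weak gene could therefore reach enough counts mainly through the members, so nothing is read from 27 against 4. Phf6, a chromatin protein, was at 9.25 and 8.79 CPM against 0.303 and 0.809 CPM in early cells. Zfp711, a zinc finger protein, was at 9.48 and 8.35 CPM against 0.303 and 1.52 CPM, and Msl3, of the MSL complex, at 4.99 and 5.81 CPM against 0.606 and 0.860 CPM. An early value of 0.303 CPM in the young library is 1 count. On the lower side, Ndufa1, a subunit of respiratory complex I, was at 13.0 and 12.9 CPM against 20.3 and 35.0 CPM, and Tmsb4x, an actin-binding thymosin, at 9.86 and 3.37 CPM against 26.0 and 9.25 CPM. Emd, the nuclear envelope protein emerin, was at 50.8 and 42.9 CPM against 60.3 and 47.0 CPM. Tsga8, an X-linked spermatid gene, was at 58.9 and 52.3 CPM over all members, at 26.3 and 26.9 CPM in those below the 10% limit, and at 314 and 259 CPM in those above it.

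Members with spermatid transcripts at 10% or more differed from the others in more than the spermatid genes that defined them. At least 1.5-fold higher in both libraries were 1844 of 10690 genes (17.2%), and 1553 (14.5%) were lower. Spag6, a protein of the flagellar axoneme, was at 222 CPM in the young library and 192 CPM in the aged one against 3.0 and 2.6 CPM in the other members, and at 504 and 493 CPM in round spermatids. Rec8, the meiotic kleisin of cohesin, was at 105 and 86.5 CPM against 1.8 and 1.6 CPM, and the level over all members was 13.5 and 10.9 CPM. Klf4, a zinc finger factor, was at 190 and 175 CPM against 4.3 and 4.9 CPM. Without doublet calls, Spag6 stood at 223 and 199 CPM and Rec8 at 107 and 92.8 CPM.

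The late genes of the rule were not lowered together in these cells. Cdk1 was 3.13- and 3.59-fold lower than in the other members, Cks2 4.25- and 3.77-fold and Aurkb 3.65- and 3-fold. Aurka was only 1.12- and 1.11-fold lower, Ccnb1 1.27- and 1.13-fold and Plk1 1.1- and 1.06-fold. Of 34 spindle and kinetochore genes, 0 were higher and 15 lower, among them Ndc80, 3.14- and 3.2-fold. Over all genes, 17.2% were higher and 14.5% lower in this comparison. Of 27 acrosome genes, 13 were higher and 1, Gopc, lower, and of 41 flagellum genes 9 were higher and 2 lower. Fbxo43, an inhibitor of the anaphase promoting complex also called Emi2, was 3.5- and 5.1-fold lower, and Slc2a3 was at 654 and 748 CPM against 2201 and 2183 CPM. The median late share of these cells was 0.729 and 0.708, and that of the other members 0.745 and 0.717. Their median totals were 27213 and 14934 counts, against 30698 and 18090.

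Between the libraries, members were much alike. Of 12990 genes with at least 50 counts, 278 (2.14%) were at least 1.5-fold higher in aged members and 469 (3.61%) lower, with a median log2 ratio of -0.01. With every cell thinned to 3215 counts, which leaves fewer genes with 50 counts, 16 and 33 of these genes were still past the limit, and in members with a late share of at least 0.8 it was 14 and 57. In the early cells, of which the young library has 107, 881 of 11397 genes (7.73%) were higher and 591 (5.19%) lower. Of 3872 genes at 50 CPM or more, 3856 (99.6%) were within 1.5-fold, 4 were higher and 12 lower in aged members. The median size of the log2 difference among these was 0.07 and its 90th percentile 0.19. No gene of the division list (22 counted) or of the anaphase promoting complex list (28 counted) passed the limit in either direction.

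The 4 genes higher in aged members at this level were Frs3, Mark2 and the gene models 4930581F22Rik and 4930470P17Rik, and early cells of both libraries held more of each. Mark2, a polarity kinase, was at 57.7 CPM in young members and 91.6 CPM in aged ones, 1.59-fold (1.48 to 1.71), against 293 and 359 CPM in early cells. Frs3, an adaptor of growth factor receptors, was at 35.7 and 57.8 CPM, 1.62-fold. Below the limit, Pou5f2 was at 147 and 220 CPM, 1.49-fold (1.43 to 1.56), Pnisr, an RNA-binding protein of nuclear speckles, at 76.7 and 111 CPM, and Cks2 had a ratio of 1.36. The aged members also lay lower on the late share. Over the 3 bins of the class, from low to high late share, the ratio was 1.13, 1.49 and 1.57 for Mark2, and 1.59, 1.40 and 1.80 for Frs3. For Pou5f2 it was 1.09, 1.42 and 1.13 (0.983 to 1.30 in the last), for Cks2 1.03, 1.29 and 1.10 (0.957 to 1.27), and for Pnisr 1.30, 1.39 and 1.53. The ratios of Pou5f2 and Cks2 were thus nearer to 1 in the bins to either side of the middle one.

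Of the 12 genes lower in aged members, 5 were limited by the rule in each cell (Prm1, Prm2, Tnp1, Tnp2 and Ptgds), and the others were Aldh1l1, Gstm1, Osbpl1a, Odf1, Smcp, Ide and Tmem267. Prm1, the protamine of elongating spermatids, was at 141 CPM (136 to 146) in young and 51.3 CPM (48.4 to 54.3) in aged members, 2.74-fold lower. In Leydig cells, which do not make protamine, Prm1 was at 251 and 91.6 CPM, so the libraries lay apart in the same direction there. Each Leydig cell was also held under 0.3% for the protamine and transition protein genes. Tnp1, a transition protein, was at 102 and 39.3 CPM in members and at 164 and 66.7 CPM in Leydig cells. Ptgds, the prostaglandin D2 synthase of Leydig cells, was at 127 and 47.4 CPM in members and at 27330 and 26500 CPM in Leydig cells. Gstm1, a glutathione transferase abundant in Leydig cells, was at 75.8 and 33.6 CPM in members and at 29540 and 30860 CPM there. The part of free RNA in these differences was not tested. Ide, the insulin-degrading enzyme, was at 601 and 397 CPM in members and 435 and 281 CPM in round spermatids, and Tmem267 at 329 and 218 CPM and at 333 and 217 CPM.

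Osbpl1a and Aldh1l1, like Gstm1, were not lower in aged Leydig cells. Osbpl1a, an oxysterol-binding protein, was at 167 CPM (162 to 173) in young and 77.2 CPM (73.7 to 80.9) in aged members, 2.17-fold lower (2.05 to 2.3). Its level was 2.67-fold lower in aged early cells, which lay lower on the late share than young ones. By bin, it was 2.43-fold lower below 0.2 and 2.08-fold lower between 0.2 and 0.5. In members between 0.65 and 0.8 it was 2.03-fold lower, at 172 and 84.7 CPM. In Leydig cells it was at 46.7 CPM in the young library and 61.8 CPM in the aged one, the other way round. Aldh1l1, the cytosolic folate dehydrogenase, had 1901 counts in young members (93.4 CPM, 89.3 to 97.7) and 9 counts in aged members (0.391 CPM, 0.179 to 0.743). Leydig cells held it at like levels, 421 and 420 CPM. Round spermatids followed the members, with 84 and 2.28 CPM.

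Aldh1l1 counts were not spread evenly over the young members. Of 630 cells, 327 (51.9%) had no count, 47 had 1 or 2, and 256 (40.6%) had at least 3, with a median of 7 and a highest value of 20 in the latter. In the aged library 1232 of 1241 members (99.3%) had no count and 9 had 1. The same split was seen in young early cells, 55 of 107 with no count and 40 with at least 3, and in young round spermatids, 240 of 504 and 192. Young members with at least 3 and with no count were otherwise alike: of 3793 other genes at 50 CPM or more, 0 were at least 1.5-fold higher or lower, and the largest difference was 1.32-fold, for Osbpl1a. Their median late shares were 0.739 and 0.746, and their median totals 30803 and 30358. This split was made after the values had been seen, and the number of mice behind the library is not given in the sources used here.

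**Figure D5:**
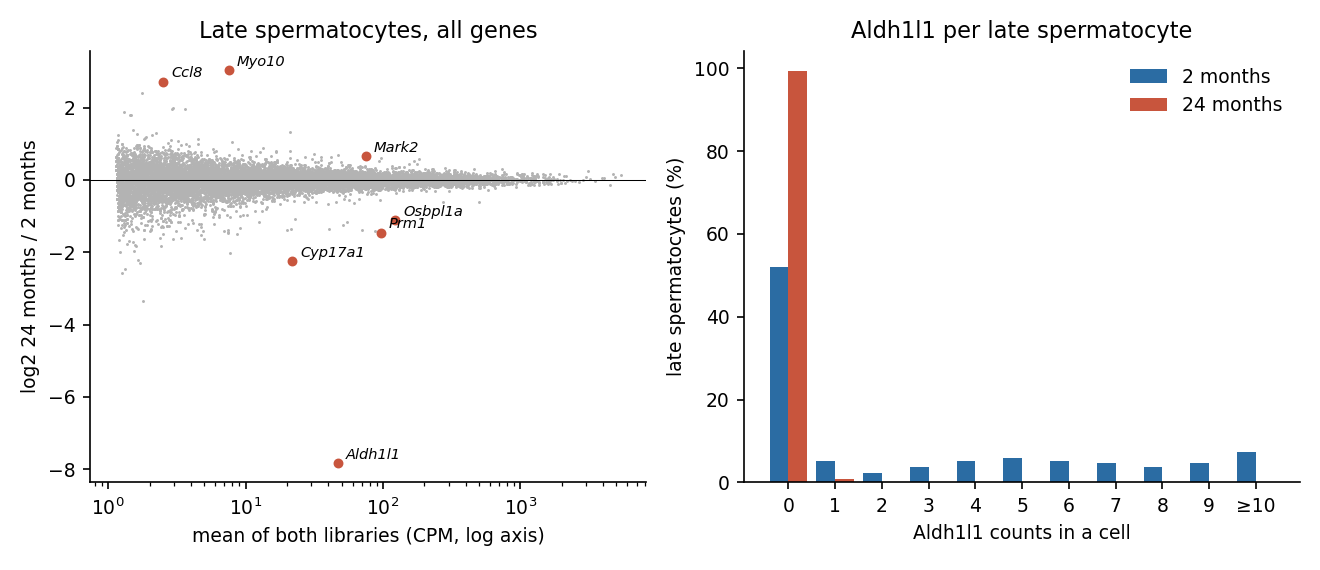
Left, log2 ratio of aged over young members (y axis) against the mean level of both libraries in CPM (x axis, log scale), 1 point per gene with at least 50 counts, with 7 genes named. Right, share of members in percent (y axis) by their number of Aldh1l1 counts (x axis), where 51.9% of young and 99.3% of aged members stand at 0.

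Among weaker genes, Myo10, a motor of filopodia, had 33 counts in young and 309 in aged members (1.62 and 13.4 CPM), 8.28-fold higher (5.78 to 12.3). The counts were spread over 29 young and 241 aged members, and the ratio was 7.25 (4.88 to 11.1) between late shares of 0.65 and 0.8. In early cells the ratio was 2.09, from few young counts: 1 below a late share of 0.2 and 5 between 0.2 and 0.5. The intervals of the ratio in these bins were 0.493 to 121 and 0.911 to 7.38. In Leydig cells the levels were 44.6 and 39.8 CPM. Vmn1r181, named a vomeronasal receptor gene, had 243 and 692 counts, 2.52-fold higher (2.17 to 2.93). Some genes of macrophages and stroma were also higher in aged members. Of 133 Lyz2 counts, 95 lay in the 2 cells with most of them, and without the top 2 cells of each library Lyz2 was at 1.33 and 1.66 CPM. Ccl8, a chemokine, had 100 counts, 73 of them in 2 cells, and was at 0.543 and 1.18 CPM without the top cells. Dcn, a matrix protein of stroma, had 109 counts in 29 cells, 65 of them in 2 cells, and was at 1.04 and 1.91 CPM without them. On the lower side, Klk1b21, a kallikrein gene whose reads may be shared with its near-identical relatives, had 67 and 7 counts, and Cyp17a1, the steroid enzyme of Leydig cells, 735 and 175.

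By list, few members passed the limit between ages, as in the background of 2.14% and 3.61%. Of 35 spindle and kinetochore genes, 1 (Kif4) was higher, at 1.52 and 2.61 CPM. Of 26 recombination genes 1 (M1ap) was lower, and of 19 meiotic exit genes 1 (Ythdc2) was higher. None of 11 synaptonemal, 11 cohesin, 16 sex body, 22 piRNA, 24 transcription factor, 24 translation or 27 acrosome genes passed it. Of 41 flagellum genes Odf1 and Ropn1 were lower, of 20 energy isozymes Gapdhs and Atp1a4, and of 9 histone variants H1fnt and Hils1. Of 19 apoptosis and DNA damage genes, 3 were higher (Chek1, Bbc3 and Gadd45b) and 1 lower (Bcl2l11). These rest on few counts, with 39 and 67 for Chek1, the checkpoint kinase, and 25 and 50 for Bbc3, the death protein PUMA, and the ratio of Gadd45b has an interval from 0.97 to 2.69.

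Summed markers of other cell types differed between the libraries as follows. Some of these lists hold genes that the rule used, so their sums in the chosen cells were partly set by the choice. The Leydig list holds Cyp17a1, Ptgds and Hsd3b6, and the elongating spermatid list Prm1, Prm2, Tnp1 and Tnp2. The round spermatid list holds Acrv1, Spaca1, Spaca3, Spaca7, Tex36 and Lyzl6, and that of leptotene to zygotene holds Sycp1. The 10 Leydig markers summed to 218 CPM in young members and 83.7 CPM in aged ones, against 57110 and 54770 CPM in Leydig cells, and 5 and 2 of them were above 10 CPM. Elongating spermatid markers (11 genes) summed to 639 and 330 CPM, and round spermatid markers (13 genes) to 1267 and 1137 CPM against 6082 and 6350 CPM in round spermatids. Sertoli markers summed to 57.7 and 26.9 CPM, with Amh and Fshr at 0 in the young library, and endothelial markers to 26.1 and 21.6 CPM. Macrophage markers were at 18.5 and 27.6 CPM with 0 of 12 genes above 10 CPM, and stromal markers at 23.8 and 31.3 CPM with Lum at 0 in the young library. Spermatogonial markers summed to 70.2 and 77.3 CPM, those of leptotene to zygotene to 432 and 459 CPM, and the blood markers were at 0 in both libraries.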

How the data were processed

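Testis cells of 1 young and 1 aged library were used. For each library the authors deposited 1 table of raw counts, whole numbers by gene and cell. Per the file headers, the aged table came from the BD Rhapsody pipeline (version 1.7.1) with STAR 2.5.2b. The young table carries no such header. Cell Ranger 2.11 and mm10 are named in the submitters' processing notes. How cells were called, whether strand was used and whether counts stand for molecules or reads are not given in the sources used here, so reads of overlapping or near-identical genes may be shared, and a difference between libraries may include a difference in processing. The tables hold 0 value columns without a sample, and genes listed in only 1 table were set to 0 in the other. GENCODE M21 held 39239 of the 39860 counted gene names (98.4%) and gave 1674 X-linked genes.

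The lowest total of the rule is that of the young table, 3215. Round spermatids are cells with the same limits whose spermatid sum was at least the spermatocyte sum (504 young, 788 aged). Leydig cells (961 and 435) met the limits on total and mitochondrial counts and had at least 2% of counts from the 4 Leydig genes. They also had under 0.3% of counts from the protamine and transition protein genes, and fewer than 3 counts from the spermatocyte and spermatid genes together. Doublets were called with Scrublet in scanpy 1.11.5 and kept, and leaving them out was an alternative. Within a class, counts were added up over cells and expressed as CPM, with exact Poisson 95% intervals. For ratios the exact conditional binomial interval was used, and for shares that of Clopper and Pearson (scipy 1.17.1, numpy 2.4.6, pandas 2.3.3, Python 3.11.15, figures with matplotlib 3.10.9). Log2 ratios were taken with 0.5 added to each count. With 1 library per age, genes with at least 50 counts were counted by size, at 1.5-fold, and the steps were tested on simulated data.

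Members and gene lists were chosen with earlier results of these data known. Named genes are those of the rule, the most abundant and the most different members of each list, and the genes with the largest ratios at 50 CPM or more. Genes outside this rule were named after their values had been seen, among them Aldh1l1 by cell, Myo10, Vmn1r181 and the X-linked genes. Alternatives were depth, doublets, the limits of the class, scaling and the count filter. The promoter letters come from RefSeq on GRCm38.p6.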

Additional observations from a re-analysis of the deposited data

Results flagged for a closer look

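In 4 genes the difference between late and early spermatocytes went opposite ways in the young and aged libraries with both intervals apart from no difference, and this difference between libraries was not tested. Lyz2, the lysozyme of macrophages, had a log2 ratio of late over early of -2.25 in the young library and 0.90 in the aged one, from 30 and 133 counts in members. Of the aged counts, 95 lay in 2 cells, both called doublets. C1qc, a complement gene of macrophages, had -1.14 and 0.66, from 43 and 63 counts in members, of which 21 and 40 lay in 2 cells each, with 1 doublet call in either pair. Rps2-ps12, a pseudogene whose reads may belong to its parent gene, had -0.96 and 0.65. Tmem184c had 0.79 and -0.73, from 143 and 106 counts in members and 13 and 151 in early cells. In all, 21 of 11396 genes passed 1.5-fold in opposite directions.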

How the results depend on the processing

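Counts and shares under alternatives not given here stayed within 1.5 times the reported count or within the interval of the reported share. With the cells called doublets left out, the X-linked share of member counts was 0.109% in the young library and 0.0958% in the aged one. With every cell thinned to 3215 counts, members were 81.2% of young spermatocytes, the X-linked shares were 0.117% and 0.114%, 171 genes were lower in aged members, and 469 were higher and 619 lower in late than in early cells. Thinning leaves fewer genes with 50 counts. Of the 278 genes higher and the 469 lower in aged members, 16 and 33 were past the limit after thinning. With at least 10 counts over the separating genes, the aged X-linked share was 0.0977%. With a late sum of at least 2 times the early sum, members were 72.5% of young and 35.0% of aged spermatocytes, and 850 genes were higher in late cells. With no count filter, 6406 genes were higher and 7448 lower in aged members, and 3422 higher and 6414 lower in late cells. Median-of-ratios scaling gave 2293 higher and 2117 lower genes in late cells, against 1947 and 2526, so the larger side turned. With at least 200 counts 39 were higher and 101 lower in aged members, and 1245 and 1489 in late cells. In members with a late share of at least 0.8, 141 genes were higher and 275 lower in the aged library, of which 14 and 57 were among the 278 and 469. Without the members with at least 10% spermatid transcripts, the X-linked shares were 0.0730% and 0.0637%, and members were 47.5% of aged spermatocytes. The last 2 alternatives were chosen after seeing the data. The planned limit of 0.9 on the late share was not run, as it leaves 1 young and 26 aged cells. Over 24 named genes and 216 values of the ratio between ages, 214 kept their sign, 0 of those past the limit reversed and 40 moved beyond the interval. No paired analysis was possible because each age has 1 library. With 1 library per age, neither animals nor library preparations can be set against the differences, and weak transcripts rest on few counts.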
